A study of Homo sapiens with 2 samples.

Results

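The S100 and epidermal differentiation region is a stretch of human chromosome 1 that was taken here from 151.90 to 153.65 Mb of the hg19 build. Its members are the YAP-5SA peaks whose summit lies between these edges, and 22 of the 9393 peaks of the list did. S100A10 and S100A11 are placed at the start of the region, IVL at 152.88 Mb, and S100A6 and S100A2 between 153.50 and 153.54 Mb. The edges are rounded coordinates of a stretch that holds these genes, and neither measured values nor gene positions. A peak is an interval enriched in sequenced DNA as the authors called it, and its summit is the highest point. The DNA was bound to Flag-tagged YAP-5SA in MCF10A cells and recovered by chromatin immunoprecipitation (ChIP). MCF10A is a mammary epithelial line that the labels call non-transformed in one place and a breast cancer line in another. The 2 samples were 1 Flag ChIP library, which gave the peak list, and 1 input DNA library without immunoprecipitation, whose reads were not analysed here. Neither had a replicate, so every difference below describes 1 peak list, has no test, and carries counting error only. Both samples come from the same line in a medium with horse serum, EGF, insulin, hydrocortisone and cholera toxin, and no cells without YAP-5SA were compared, so the peaks are those of a tagged active mutant and not of the cells' own YAP.

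YAP is a transcriptional co-activator that the Hippo pathway holds out of the nucleus through phosphorylation by LATS kinases, and in the 5SA form the phosphorylated serines are replaced by alanine. YAP does not bind DNA by itself: it is brought to DNA by TEAD transcription factors, often at enhancers that also hold AP-1 (FOS and JUN) sites. The epidermal differentiation complex is a block of neighbouring genes whose products build the outer layers of stratified epithelium. S100 genes encode small calcium-binding proteins and stand at both ends of the block. S100A10 is the partner of annexin A2, S100A11 acts in membrane repair and keratinocyte growth control, S100A2 is typical of basal epithelial cells, and S100A6 (calcyclin) is high in many dividing cells. IVL encodes involucrin, an early precursor of the cornified envelope. RNA was not measured, so nothing below concerns the expression of these genes.

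The order of genes along the block was read from the RefSeq table of GRCh38.p14, a build whose coordinates cannot be set beside hg19 peak positions. The order is taken to be the same in both builds. From S100A10 to S100A1 the table listed 63 protein-coding genes. Of these, 30 stood between S100A11 and IVL, among them the 7 fused-type S100 genes TCHHL1, TCHH, RPTN, HRNR, FLG, FLG2 and CRNN and the 19 LCE genes of the late cornified envelope. A further 21 stood between IVL and S100A6, among them 11 SPRR genes (small proline-rich envelope proteins), LORICRIN, which encodes the main protein of the mature envelope, and S100A9, S100A12, S100A8, S100A7A and S100A7. S100A5, S100A4 and S100A3 lay between S100A6 and S100A2, and S100A16, S100A14, S100A13 and S100A1 followed S100A2. A peak is therefore described by its position relative to S100A6, S100A2 and IVL, and no peak is assigned to a gene.

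The promoters of the 5 named genes divided into a pair with an AP-1 type motif and a trio with neither motif searched. The promoters with the motif, IVL and the upstream one of the 2 S100A2 starts, are printed with that of S100A10, which stands for the CG-rich trio. Each line gives the 250 bases before the start from RefSeq (GRCh38.p14), 5′ to 3′ on the gene's strand, with the AP-1 type motif TGANTCA in capitals. The IVL stretch is chr1:152908296-152908545 (plus strand), that of S100A2 is chr1:153565845-153566094 (minus strand), and that of S100A10 is chr1:151993860-151994109 (minus strand).
IVL: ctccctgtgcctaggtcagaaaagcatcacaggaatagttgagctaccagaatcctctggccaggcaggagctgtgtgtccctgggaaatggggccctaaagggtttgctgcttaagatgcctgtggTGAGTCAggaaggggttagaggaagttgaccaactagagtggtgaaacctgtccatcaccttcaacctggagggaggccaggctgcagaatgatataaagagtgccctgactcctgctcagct
S100A2: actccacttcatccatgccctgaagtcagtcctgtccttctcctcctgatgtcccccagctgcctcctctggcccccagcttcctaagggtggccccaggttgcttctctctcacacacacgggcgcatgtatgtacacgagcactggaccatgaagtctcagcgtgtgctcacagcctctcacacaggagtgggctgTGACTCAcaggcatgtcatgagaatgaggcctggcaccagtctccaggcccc
S100A10: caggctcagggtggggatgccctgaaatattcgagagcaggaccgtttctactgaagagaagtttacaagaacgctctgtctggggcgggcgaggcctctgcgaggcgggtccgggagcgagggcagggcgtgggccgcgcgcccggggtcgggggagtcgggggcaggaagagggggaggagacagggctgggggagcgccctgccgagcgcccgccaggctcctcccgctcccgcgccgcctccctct

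All 5 named genes matched the promoter table, S100A2 with 2 starts. The IVL motif, TGAGTCA, begins 123 bases before the start, and the S100A2 motif, TGACTCA, begins 52 bases before it. No promoter of the 5 genes held the TEAD type motif GGAATG (or CATTCC on the other strand) in the window of 300 bases from 250 before to 50 after the start. The IVL window held 0 CG dinucleotides and that of the upstream S100A2 start held 5, against 32 for S100A10, 22 for S100A11 and 31 for S100A6, where the median over all 35116 promoters was 14. A match shows only that the letters are there.

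Across the block, motif letters differed between gene families. Both strands were read, and a gene was counted when any of its listed starts held the motif. TGANTCA was found for 6 of 7 fused-type S100 genes (FLG, which encodes filaggrin, TCHH, trichohyalin, and all others but HRNR) and for 6 of 9 SPRR genes with a promoter (SPRR1A, SPRR1B, SPRR3, SPRR2A, SPRR2F and SPRR2G). It was found for 4 of 16 S100A genes (S100A12, S100A5, S100A3 and S100A2) and for 0 of 18 LCE genes, while 9.37% of all 27305 genes of the table had it. GGAATG was found for 6 of 18 LCE genes, among them LCE2A, LCE2B, LCE2C and LCE2D, for 4 of 9 SPRR genes, for 2 of 7 fused-type genes (TCHH and FLG) and for 2 of 16 S100A genes (S100A5 and S100A16), against 16.7% of all genes. The families hold protein-coding genes only, while the shares over all genes were taken without that limit, so the sets are not alike. Genes of a family arose by duplication and share sequence, so they are not independent.

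**Figure D1:**
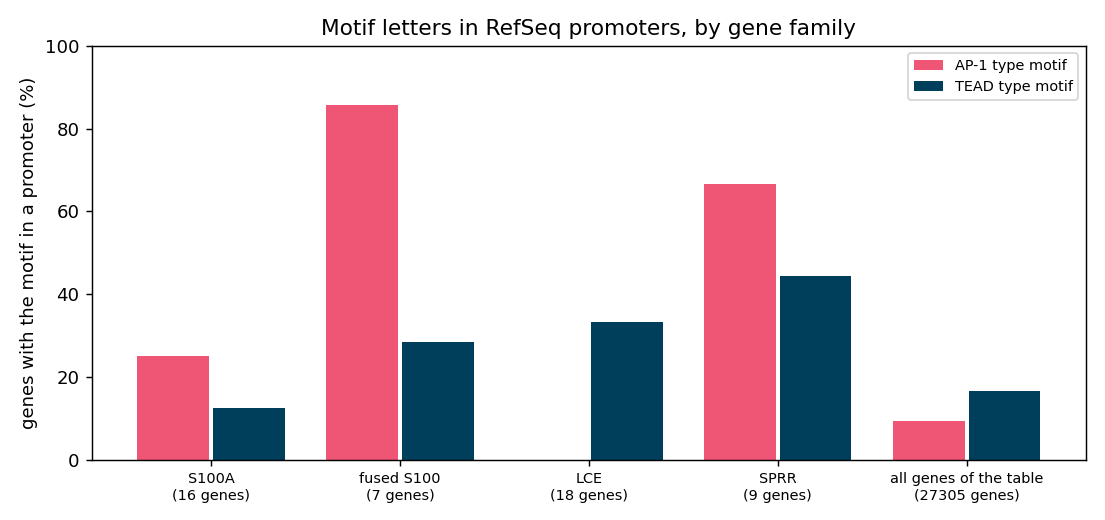
Share of genes (%) with the AP-1 type motif TGANTCA (red) or the TEAD type motif GGAATG (dark blue) in a RefSeq promoter window of 300 bases, for the families of the region and for all genes of the table. The AP-1 type motif was found for 6 of 7 fused-type S100 genes and 6 of 9 SPRR genes and for 0 of 18 LCE genes. The families hold protein-coding genes only, and the set of all genes was not so limited.

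Peaks were dense in the region. It held 12.6 peaks per Mb (exact Poisson 95% interval 7.88 to 19.0), against 4.43 per Mb on the rest of chromosome 1 and 3.45 per Mb in the rest of the list, which are ratios of 2.84 and 3.65. The rest of the long arm of chromosome 1 held 5.28 per Mb, a ratio of 2.38 for the region. All 3 of these densities lie below the interval of the region. The members were chosen with earlier results of these data known, so these values describe the list and test nothing. The stretches of the same length on either side held 12 peaks before the region and 11 after it, together 6.57 per Mb (4.17 to 9.86), and the intervals of region and flanks overlap. DNA copy number and gene content were not corrected, and the higher density of the whole long arm moves with that of the region; their part in it was not tested.

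When the genome was cut into 1684 windows of 1.75 Mb, the median window held 5 peaks and the interquartile range was 2 to 8. In 6 windows (0.356%) there were 22 peaks or more, and the highest count was 35. These shares describe the list, since the edges of the region were drawn around genes and not on the window grid.

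**Figure D2:**
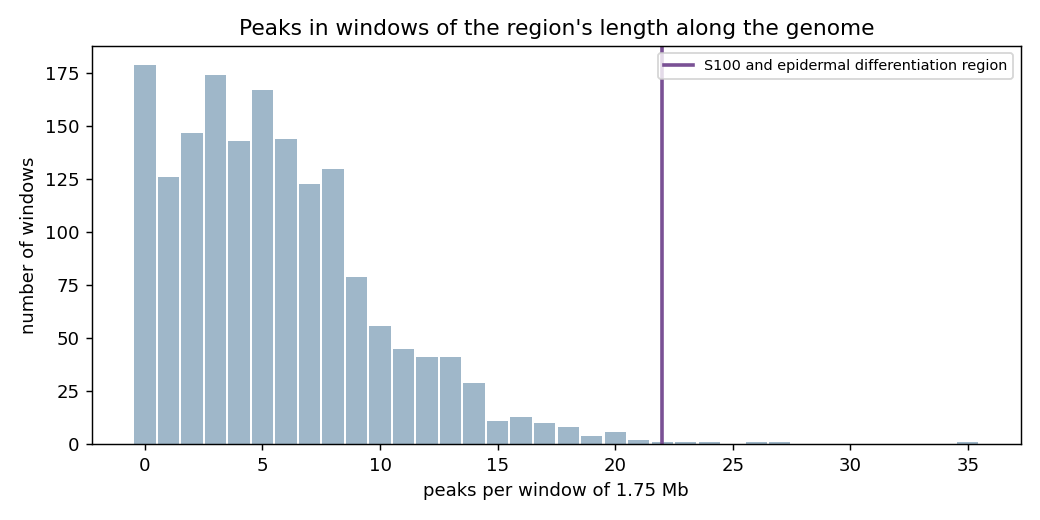
Number of windows (y axis) against the number of YAP-5SA peaks in each window of 1.75 Mb (x axis), for 1684 windows tiled along the chromosomes. The vertical line marks the 22 peaks of the region, which 6 windows reached or passed.

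The median height of the region differed little from that of the list, and its median width was larger by 109 bp, but both intervals include the list's median. The height is the authors' score at the summit, with no unit given. Its median was 23.5 in the region (exact binomial 95% interval 19 to 34) and 24 in the rest of the list, and 11 of the 22 peaks stood above the median of the list. The mean was 26.6 ± 11.5 in the region (SD over 22 peaks) and 25.8 ± 9.60 in the rest of the list (SD over 9371 peaks). The median over the 23 flank peaks was 29, against 23.5 in the region, and the region's interval includes 29.

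Both extremes of height were present. A height of 40 or more was reached by 4 of 22 peaks, or 18.2% (exact binomial 95% interval 5.19 to 40.3), where 8.67% of all peaks reached it. A height of 12 or less was found for 2 of 22, or 9.09% (1.12 to 29.2), where 1.51% of all peaks were as low. With 22 peaks, both intervals include the share of the list. In the flanks 7 of 23 peaks (30.4%) reached 40 and 0 of 23 were at 12 or less (up to 14.8%), and on the rest of the long arm 11.2% reached 40.

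The median width was 720 bp in the region (interval 565 to 881) and 611 bp in the rest of the list, with 650 bp on the rest of the long arm and 636 bp on the rest of chromosome 1. A width of 900 bp or more was found for 5 of 22 peaks, or 22.7% (7.82 to 45.4), where 8.45% of all peaks were as wide, a share that the interval includes. The flanks gave 739 bp and 6 of 23, so wide peaks were found beside the region too. Width and height showed no rank correlation in the region (Spearman's rho = 0.003 over 22 peaks from 1 library, against 0.15 over the whole list).

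**Figure D3:**
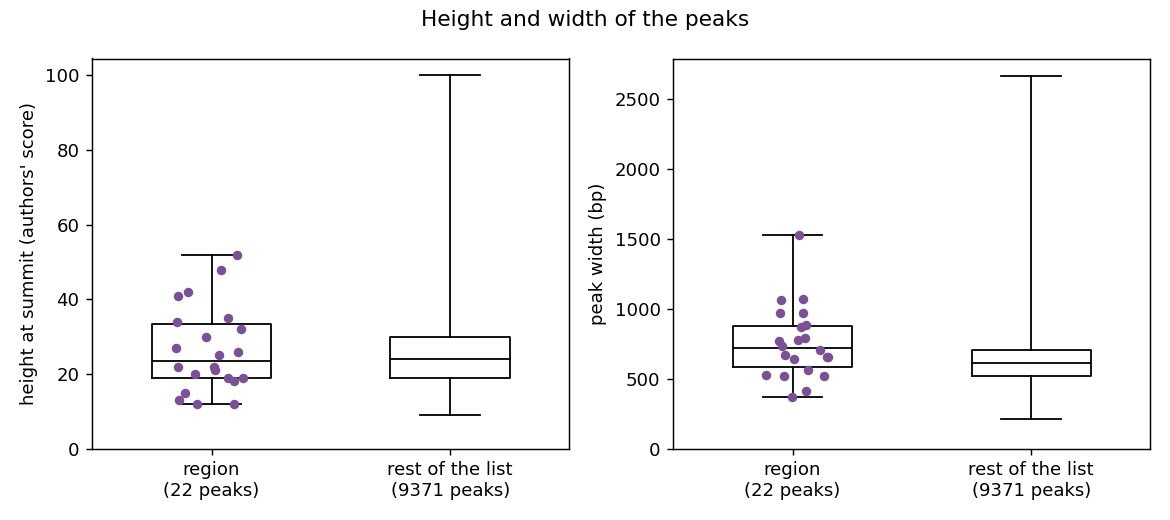
Height at the summit (left, authors' score) and width (right, bp) of the 22 peaks of the region and the 9371 peaks of the rest of the list. Boxes give the median and quartiles, whiskers the lowest and highest peak, and points the single peaks of the region: the medians of height are 23.5 and 24, and those of width 720 and 611 bp.

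The region began with 4 peaks within 38.4 kb, at the end where S100A10 and S100A11 lie. The first, chr1:151960721-151961515, had a height of 48, taller than 96.5% of the list, and a width of 795 bp. The next, 5.18 kb on at chr1:151965947-151967020, had a height of 20 over 1074 bp. Another, chr1:151970993-151971860, had a height of 13 over 868 bp. Each peak of this trio was thus lower than the one before it, and each was wider than at least 85.8% of the list. The fourth, chr1:151999335-151999850, was narrow at 516 bp, with a height of 34. A gap of 138 kb followed.

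The edge of the region cuts near this group. The last peak outside it had its summit 2.62 kb before the edge, with a height of 40 and a width of 510 bp, and the first inside was 63.7 kb further on. At the other edge the last peak inside lay at 153.61 Mb, and the next peak outside, of height 34, was 287 kb beyond the edge.

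Between the first 4 peaks and IVL, 10 peaks were found, mostly far apart. A close pair at 152.14 Mb, 3.07 kb from summit to summit, had heights of 12 and 32 and widths of 653 and 656 bp. Beyond it stood single peaks of height 25 at 152.2 Mb (409 bp), of height 35 at 152.3 Mb (967 bp) and of height 21 at 152.37 Mb (881 bp). The middle one, chr1:152301063-152302029, was the only peak wider than 900 bp outside the ends of the region. Peaks of height 19 and 18 followed at 152.48 and 152.5 Mb, and then 227 kb without a peak. In gene order, fused-type S100 genes and then LCE genes fill this span, but which peak lies at which of them was not examined.

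The tallest peak of the region stood before IVL. At chr1:152827932-152828575 it had a height of 52 over 644 bp, above 97.7% of the list, with its nearest neighbour 50.5 kb away. Its summit lay 51.7 kb before the position given for IVL, and a peak of height 27 lay 103 kb before it. At the position of IVL itself there was 1 peak, chr1:152878398-152879166, with a height of 22 and a width of 769 bp. Its height was below the median of the list and its summit was 1.18 kb from that position, which is known only to 0.01 Mb. No other summit lay within 50 kb of the rounded position, and the rounding leaves unknown whether the tallest peak lies within 50 kb of the gene.

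In the span after IVL the density of peaks was near that of the rest of chromosome 1. From 152.88 to 153.50 Mb, where the gene order has the SPRR genes, LORICRIN and the S100A7 to S100A9 genes, there were 3 peaks, or 4.84 per Mb (exact Poisson 95% interval 0.998 to 14.1). The rest of chromosome 1 held 4.43 per Mb and the rest of the long arm 5.28, both inside this interval. From the start of the region to IVL there were 14, or 14.3 per Mb (7.81 to 24.0). The intervals overlap, so at these counts a difference between the spans before and after IVL was not resolved. The 3 peaks were low and narrow at 153.07 Mb (height 19, 370 bp, the narrowest of the region), tall at 153.21 Mb (height 42, 706 bp) and intermediate at 153.46 Mb (height 26, 523 bp). The longest spacing of the region, 248 kb, separates the last 2 of these. Whether reads can be mapped uniquely there was not examined, so a stretch without peaks does not show that YAP-5SA was absent.

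Peaks were also packed closely at the S100A6 to S100A2 end, where the last 5 lay within 67.7 kb, against 38.4 kb for the first 4 of the region. From 153.50 Mb to the end of the region there were 5 peaks in 0.15 Mb, or 33.3 per Mb (10.8 to 77.8), whose lower bound lies inside the interval of the region as a whole. The first pair, chr1:153538818-153539551 and chr1:153540662-153541439, had heights of 22 and 12 and summits 2.03 kb apart, the closest in the region. Both stood at the outer edge of the S100A6 to S100A2 span, and none lay further inside it. The next, chr1:153550967-153551934, followed 9.97 kb on with a height of 30 over 968 bp.

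The widest peak of the region came next. At chr1:153580519-153582050 it measured 1532 bp, wider than 99.5% of the list, with a height of 41. The last peak, chr1:153606100-153607164, was 1065 bp wide but only 15 in height. In gene order, S100A16, S100A14, S100A13 and S100A1 follow S100A2 on this side. Within 50 kb of the S100A6 to S100A2 span there were 5 peaks, 4 of them at or beyond its outer edge rounded to 0.01 Mb and 1 before it, at 153.46 Mb.

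**Figure D4:**
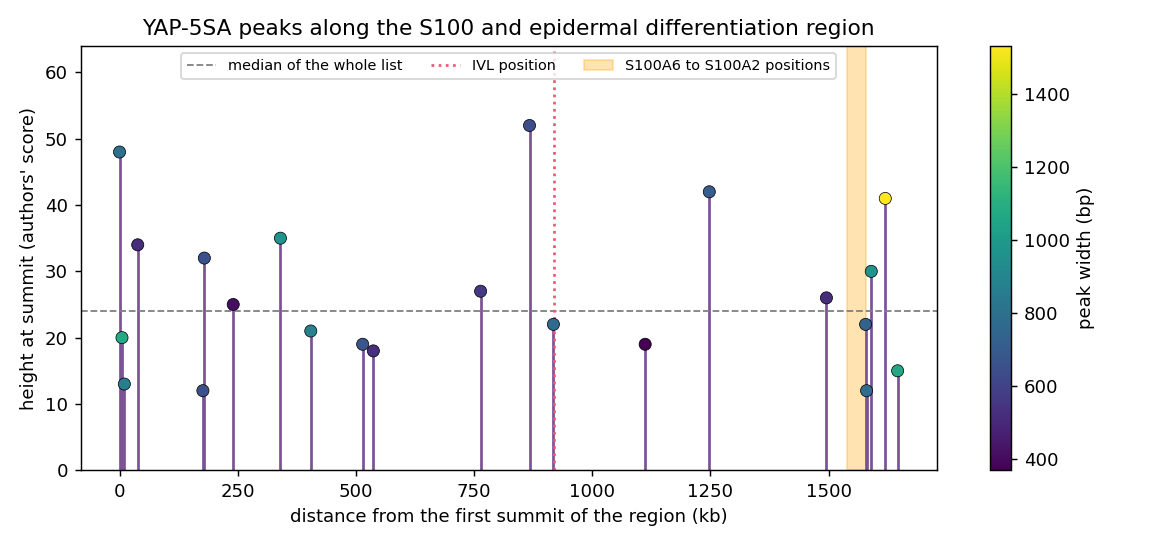
Height at the summit (authors' score) against distance from the first summit of the region (kb) for its 22 peaks, with peak width (bp) as colour. The dashed line is the median of the whole list, the dotted line the position of IVL and the band that of S100A6 to S100A2: the tallest peak, of height 52, stands before IVL, and the widest, of 1532 bp, beyond S100A2.

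The first 4 and last 5 peaks, at the S100 ends, were set against the other 13. This split was made after the map had been seen, so its values describe these peaks and cannot test a difference. The 9 end peaks had a median width of 868 bp (range 516 to 1532), and the 13 between had 653 bp (370 to 967). Median heights were 22 at the ends and 25 between, with ranges of 12 to 48 and 12 to 52, so both sets overlap almost wholly in height.

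Several summits at the ends lay off centre. The summit was 150 bp or more from the middle of the interval for 6 of 9 end peaks (66.7%, exact binomial 95% interval 29.9 to 92.5) and for 0 of the 13 between (up to 24.7%), where 7.91% of all peaks had such a summit. These intervals take no account of a split chosen on the same peaks. The largest offset among the 13 was 138 bp, near the distance chosen. The count depended on that distance: at 200 bp it was 3 at the ends and 0 between, and at 100 bp it was 6 at the ends and 1 between. The 3 summits counted at 200 bp were all among the last 5 peaks, at the S100A6 to S100A2 end. In the widest peak the summit lay 453 bp from the middle, 20.4% of the way along the interval, and in the last peak 280.0 bp from it, 76.3% of the way along. Such summits went with width in the list too: 64.1% of its 794 peaks of 900 bp or more had one. Whether these intervals join adjacent enrichments was not tested.

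Close neighbours were found for 8 of 22 peaks, which had another summit within 10 kb. That is 36.4% (exact binomial 95% interval 17.2 to 59.3), where 19.5% of all peaks had one, and the interval includes this share. The share was 30.4% in the flanks (7 of 23 peaks) and 24.2% on the rest of chromosome 1, both also inside the interval. Among the 11 peaks of the region above the median height of the list, 0 had another such summit within 10 kb (up to 28.5%). Every close pair thus held a peak at or below that median. The same share was not computed for the whole list, and leaving out the lower peaks also removes neighbours, so this value has no comparison. With intervals joined across gaps of up to 12500 bp, the 8 peaks formed 3 groups: a trio over 11.1 kb at the S100A10 and S100A11 end, a pair over 3.80 kb at 152.14 Mb and a trio over 13.1 kb beside S100A2. Each group paired 1 peak of height 30 or more with 1 of height 13 or less. The 3 lowest peaks of the region, of heights 12, 12 and 13, thus all had a taller peak within 10 kb. For each of the 3 the nearest summit was that of a taller peak. In the whole list the nearest summit was within 10 kb and taller for 52 of 280 peaks of height 13 or less (18.6%). The 3 were picked out after their heights had been seen.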

How the data were processed

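ChIP DNA from 1 Flag-YAP-5SA library was sequenced on an Illumina HiSeq, per the labels' protocols, after formaldehyde fixation, sonication and capture on Flag-M2 beads. Alignment tool BWA 0.6.1, peak caller MACS and build hg19 are named per the submitters' processing notes, with the peak threshold and control not given in the sources used here. The score deposited by the authors, called height, has no stated unit and no read counts accompany it, so depth is unknown and heights were compared only within the list. Per the file headers, summits and intervals are separate tracks, which were joined by order. All 22 summits lay on multiples of 32 bp or halfway between. Positions are 1-based.

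Density used the distance from first to last summit of each chromosome less its longest peak-free stretch. Shares and medians have exact binomial intervals and counts exact Poisson intervals, all at the 95% level, for counting error only, and peaks that cluster make them too narrow. No hg19 annotation was used. The GRCh38.p14 tables gave gene order and promoter letters. Peaks are not replicates, and no test was run. All members of the region are described, and genes are named by the list of the region and by family. Members and lists were chosen with earlier results of these data known. Functions were tested on simulated data. Alternatives were peaks above the median height, merged intervals, moved edges, other distances and, added after seeing the data, other end sets and thresholds. Intervals were computed with scipy 1.17.1, tables with pandas 2.3.3 and numpy 2.4.6, and plots with matplotlib 3.10.9, under Python 3.11.15.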

Additional observations from a re-analysis of the deposited data

How the results depend on the processing

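No paired analysis was possible because each group has a single library; for the same reason no replicate could be left out. The density ratio of the region to the rest of chromosome 1 was 2.41 to 2.87 and that to the rest of the list 3.09 to 3.89 over restriction to peaks above the median height, merged intervals and moved edges. The median height of the region less that of the rest was -0.5, and 1 with the edges moved inward by 0.05 Mb, which leaves out 1 low peak, so its sign is not fixed. The median width of the region less that of the rest was 84.5 to 109 bp over the merged intervals and moved edges, and the share at height 40 or more was 18.2 to 20.8%. Merging changed none of these values, so it was no separate check of them. Among the 11 peaks above the median height, 0% had another such summit within 10 kb (exact binomial 95% interval up to 28.5%). For all 22 the share was 36.4%, but it counts neighbours of any height, so these shares are not alike. Joining at 25 kb gave 5 groups, against 3 at 12500 bp and at 5 kb. Between 4 and 8 peaks lay within 25 to 100 kb of the positions stated for IVL and for S100A6 to S100A2, against 6 within 50 kb. S100A10 and S100A11, placed only at the start of the region, were not part of this count. Of the choices added after seeing the data, the median width of end peaks less that of the peaks between was 179 to 315 bp, against 215, and summits 200 bp or more off centre numbered 3 at the ends, against 6 at 150 bp. Unknown read depth and the small number of peaks limit all of these values.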
